A study of Homo sapiens with 9 samples.

Results

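The genes described here are 38 genes of DNA replication and of the E2F programme, measured by RNA-seq in OVCAR3, a human cell line derived from an epithelial ovarian cancer. The members were chosen by name from a list of replication and nucleotide synthesis genes, and not by a measured value, although earlier results of these data were known when the list was made, and all 38 were found among the 60660 gene identifiers of the count table. Of the 60660 identifiers, 17794 genes had enough reads to be tested, and all 38 members were among them. The study asked which genes depend on CTCFL (also called BORIS), a germline paralog of the insulator protein CTCF, and changed its level in both directions. It compared 3 groups with 3 biological replicates each. Control cells carried no change of *CTCFL* per the labels, and the methods name a LacZ plasmid for them. CTCFL-OE cells were transiently transfected with 2 µg of the plasmid pCpGfree-vitroHBORIS, which carries the *CTCFL* open reading frame, and were collected after 48 h. In CTCFL-KD cells *CTCFL* was lowered with siRNAs, and their RNA came from knockdown experiments of an earlier publication. The siRNA treatment, the separate experiment and the loss of CTCFL therefore cannot be told apart in any comparison with CTCFL-KD. All libraries came from 1 cell line, transient transfection leaves some cells untransfected, and for the plasmid transfections each biological replicate was a pool of technical replicates.

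Eukaryotic replication origins are licensed in G1, when the origin recognition complex, CDC6 and CDT1 load the MCM2-7 ring onto DNA. In S phase, kinases and loading factors add CDC45 and the GINS complex to this ring, which gives the active CMG helicase, and primase, polymerases, the PCNA clamp and its RFC loader then copy the DNA with nucleotides made by enzymes such as ribonucleotide reductase. Most of these genes are transcribed in late G1 by E2F factors, which RB proteins hold back until cyclin D and cyclin E kinases release them, and *CCNE1* and the RB pathway are often altered in ovarian cancer.

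E2F factors bind short GC-rich elements close to transcription starts, and the promoters of 3 members whose levels are compared further on are shown with such elements. The 4 spellings TTTCCCGC, TTTCGCGC, TTTGCCGC and TTTGGCGC were searched on both strands in RefSeq promoters of GRCh38.p14, from 250 bases before to 50 bases after each start. *CDC6* and *MCM6*, both lower in CTCFL-KD, and *E2F1*, which did not pass the test there, are shown as 150 bases each, with letters that match in capitals. Each sequence reads 5′ to 3′ on the strand of its gene, which is plus for *CDC6* (chr17:40287744-40287893) and minus for *MCM6* (chr2:135876446-135876595) and *E2F1* (chr20:33686386-33686535).
CDC6: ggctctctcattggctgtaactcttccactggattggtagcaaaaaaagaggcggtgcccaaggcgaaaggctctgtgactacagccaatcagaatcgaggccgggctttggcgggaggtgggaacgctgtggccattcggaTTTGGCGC
MCM6: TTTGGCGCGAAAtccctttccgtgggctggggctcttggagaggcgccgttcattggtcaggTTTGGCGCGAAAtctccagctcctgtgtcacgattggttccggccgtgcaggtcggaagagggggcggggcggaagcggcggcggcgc
E2F1: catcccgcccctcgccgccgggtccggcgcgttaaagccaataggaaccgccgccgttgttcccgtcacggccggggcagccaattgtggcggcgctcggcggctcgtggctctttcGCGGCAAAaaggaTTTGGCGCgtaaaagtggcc
The match of *CDC6* starts 7 bases after the transcription start. *MCM6* holds 2 stretches of capitals, and in each of them a match on the plus strand of the gene overlaps a match on the opposite strand. *E2F1* holds matches on both strands, 33 and 20 bases before its start.

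The matches of other members are shown as 24 bases each, so that members that were lower in CTCFL-KD can be set beside members that were not. *GINS1* (chr20:25407670-25407693, plus strand), *PCNA* (chr20:5126666-5126689, minus strand), *RFC3* (chr13:33818086-33818109, plus strand) and *TYMS* (chr18:657606-657629, plus strand) were lower.
GINS1: tttgttcgGCGCCAAAgcgcggag
PCNA: cgtcagggGCGGGAAAaggcgtgc
RFC3: tggagctcGCGGGAAAacttgtct
TYMS: ggacggccGCGGGAAAaggcgcgc
*CDT1* (chr16:88803746-88803769, plus strand), *GMNN* (chr6:24775325-24775348, plus strand), *MCM7* (chr7:100101391-100101414, minus strand), *LIG1* (chr19:48170443-48170466, minus strand) and *E2F2* (chr1:23531260-23531283, minus strand) did not pass the test and had log2 fold changes above -0.15.
CDT1: gggcgcccGCGGGAAAtttggcgg
GMNN: gggtcggtTTTGGCGCgctctcac
MCM7: gggcgacgTTTCGCGCcaatttcg
LIG1: tcacccctTTTCCCGCcctcctcc
E2F2: gcacgacgTTTGGCGCtaaaaaaa
The spelling GCGGGAAA, the reverse complement of TTTCCCGC, stands in *PCNA*, *RFC3* and *TYMS* of the first set and in *CDT1* of the second, and *LIG1* of the second holds it on the opposite strand. The promoter of *MCM7* also holds it, farther upstream than the bases shown. A match is a description of the letters and does not show that a factor binds there.

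The 9 libraries held between 14332622 and 24490080 counts, and the mitochondrial share of them was 6.16% to 6.52% (Control), 7.40% to 14.9% (CTCFL-OE) or 7.80% to 11.8% (CTCFL-KD). As a check of the labels, *CTCFL* had 6, 9 and 10 counts (Control), 36, 34 and 72 counts (CTCFL-OE) and 0, 1 and 0 counts (CTCFL-KD). Epithelial and ovarian carcinoma markers such as *PAX8*, *EPCAM* and *KRT8* were high in every group, but the summed level of 10 such markers was 5374 to 5480 CPM, the count per scaled library total, in Control, 4672 to 5072 CPM in CTCFL-OE and 9156 to 14951 CPM in CTCFL-KD. Of the 10, 6 were higher in CTCFL-KD (*MUC16*, *KRT8*, *KRT18*, *EPCAM*, *CDH1* and *MSLN*), 2 were lower (*WT1* and *KRT7*) and *PAX8* and *SOX17* did not pass the test used below. The summed level of 8 fibroblast markers was 27.6 to 33.5 CPM (Control), 24.7 to 43.8 CPM (CTCFL-OE) or 37.0 to 42.0 CPM (CTCFL-KD), with *COL1A2* at 0 in every Control library and at a mean of 13.9 CPM in CTCFL-KD and *DCN* at or near 0 throughout, and that of 8 blood and endothelial markers was between 6.03 and 11.0 CPM. Replicate 1 of CTCFL-KD stood apart from its group, with a log2 ratio to replicates 2 and 3 that had a Spearman correlation of -0.63 with transcript length over 10280 genes, so counts below are also given without it. The part of these differences in the results was not tested.

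In CTCFL-KD, 16 of the 38 members were lower than in Control and none was higher. The 16 were the licensing genes *ORC1* and *CDC6*, the helicase genes *MCM4*, *MCM6*, *MCM10*, *GINS1* and *GINS4*, the primase gene *PRIM2*, the clamp and clamp loader genes *PCNA*, *RFC1*, *RFC3* and *RFC5*, the nucleotide synthesis genes *RRM1*, *RRM2* and *TYMS*, and *CCNE2* (cyclin E2). They are 42.1% of the members, where 16.8% of all genes tested were lower and 21.4% were higher at the same threshold, an adjusted p under 0.05. Here and below, adjusted p values are from the quasi-likelihood test of edgeR with Benjamini-Hochberg adjustment over the 17794 genes, and SE is the standard error of a log2 fold change. A further 4 members passed only an unadjusted p under 0.05, all with a fold change below 0, and no member with a fold change above 0 did. In all, 20 members had an unadjusted p under 0.05, beside 3828 of the 17794 genes tested with a fold change below 0 and 4763 above 0. The log2 fold changes of the 38 members ran from -1.13 to 0.64 with a median of -0.42, beside a median of 0.08 over all genes tested, and 34 of them were below 0. With the further condition of a log2 fold change beyond 1, as for a differentially expressed gene (DEG), 3 members remained, *GINS4*, *PRIM2* and *CCNE2*, while 7.94% of all genes tested were DEGs lower in CTCFL-KD. Most of the changes called were thus smaller than 2-fold. In bulk RNA, fewer cells in S phase and less RNA of these genes per cell cannot be told apart.

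**Figure D1:**
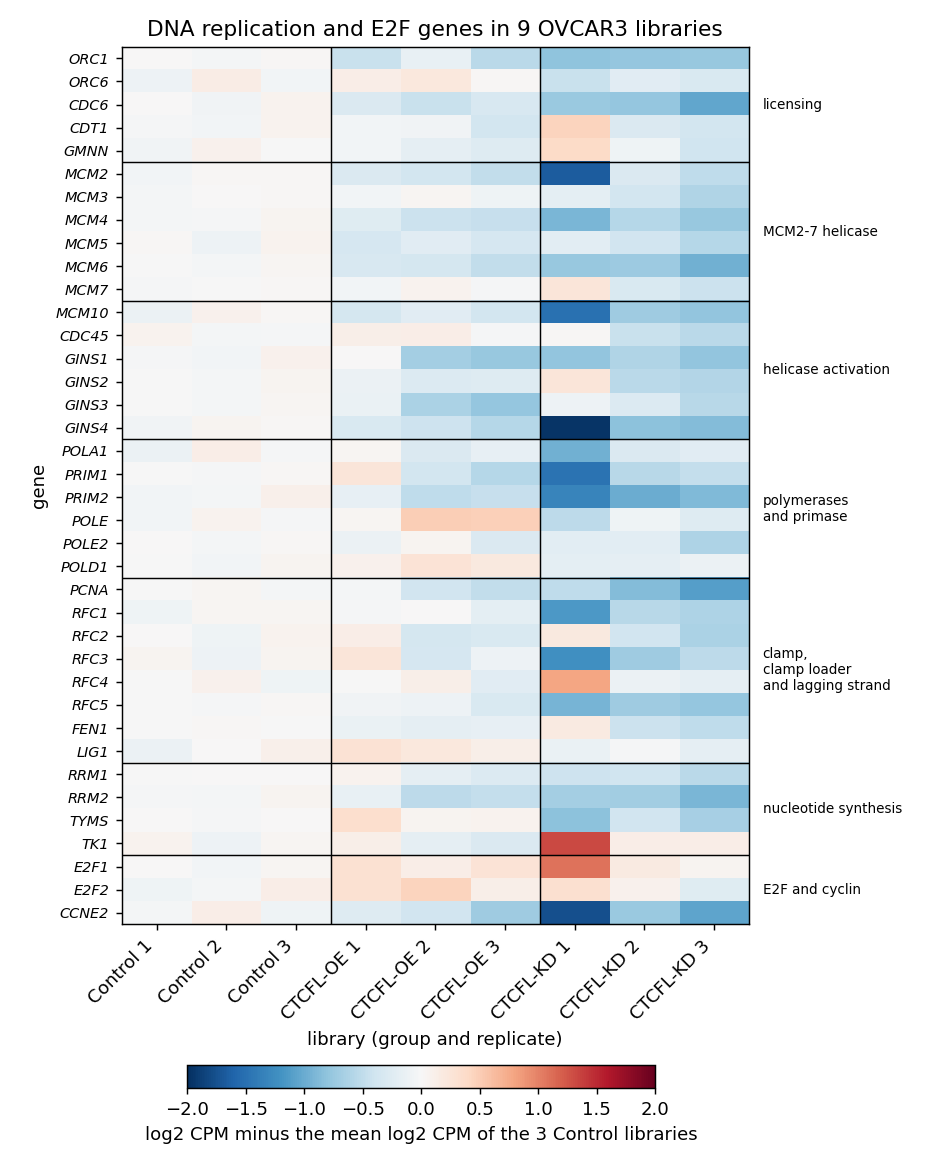
Each row is a gene and each column a library, and the colour is the log2 CPM of the gene minus its mean over the 3 Control libraries, from blue (below) through white (equal) to red (above). The CTCFL-KD columns are mostly blue, and replicate 1 of CTCFL-KD differs from the other 2 in both directions, with *GINS4* and *CCNE2* darkest blue and *TK1* and *E2F1* reddest.

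The sum of the CPM of the 38 members ran from 3044 to 3151 (Control), from 2596 to 2934 (CTCFL-OE) and from 2081 to 2598 (CTCFL-KD). Both changed groups lay below Control, and the highest CTCFL-KD library reached the lowest CTCFL-OE library. In 26 members the whole CTCFL-KD group lay below the whole Control group, in 2 members (*TK1* and *E2F1*) it lay above, and in 10 the groups overlapped. Over all genes tested, 27.6% lay below and 28.7% above in this way. The median difference of the members from the Control mean was -0.47, -0.39 and -0.56 on the log2 scale in replicates 1, 2 and 3 of CTCFL-KD, and each library had at least 27 of the 38 members below that mean.

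Of the 5 licensing genes, 2 were lower in CTCFL-KD and 3 did not pass the test. *CDC6*, the ATPase that helps to load the MCM ring, had the lowest p of this group. It measured 66.6, 62.6 and 69.3 CPM (Control), 54.0, 48.7 and 53.0 CPM (CTCFL-OE) and 39.3, 38.8 and 32.0 CPM (CTCFL-KD). The 3 groups did not overlap, and CTCFL-KD was at 0.555 times the Control level, with a log2 fold change of -0.85 ± 0.16 (SE, adjusted p = 0.00191). *ORC1*, the largest subunit of the origin recognition complex, measured 29.8, 28.6 and 30.0 CPM (Control), 21.6, 26.5 and 20.2 CPM (CTCFL-OE) and 16.9, 17.3 and 17.4 CPM (CTCFL-KD). Its CTCFL-KD libraries were the most alike of all 38 members, below every other library, and its log2 fold change was -0.78 ± 0.16 (SE, adjusted p = 0.00344). *ORC6*, the smallest subunit, had a log2 fold change of -0.33 ± 0.16 (SE, adjusted p = 0.121). *CDT1*, the partner of CDC6 in loading, and *GMNN* (geminin), the inhibitor of CDT1, had log2 fold changes within 0.05 of 0, with 95% intervals of -0.52 to 0.46 and -0.45 to 0.44. In both of these genes replicate 1 of CTCFL-KD lay above the Control libraries while replicates 2 and 3 lay below them, and without replicate 1 the values were -0.32 and -0.23, which did not pass.

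Among the 6 subunits of the MCM2-7 ring, *MCM4* and *MCM6* were lower in CTCFL-KD, and all 6 log2 fold changes were below 0, from -0.81 to -0.13. *MCM6* measured 149, 147 and 155 CPM (Control), 121, 118 and 107 CPM (CTCFL-OE) and 88.6, 91.0 and 77.4 CPM (CTCFL-KD). No library of 1 group overlapped another, and the log2 fold change in CTCFL-KD was -0.81 ± 0.16 (SE, adjusted p = 0.00231). *MCM4* measured 273, 277 and 291 CPM (Control) and 148, 189.6 and 165 CPM (CTCFL-KD), a log2 fold change of -0.74 ± 0.17 (SE, adjusted p = 0.00651). *MCM2*, *MCM3* and *MCM5* lay below all Control libraries in CTCFL-KD too, but with adjusted p of 0.0739, 0.0946 and 0.0773 from the same test. For *MCM2* the log2 fold change was -0.71, but its CTCFL-KD libraries measured 64.4, 167 and 144 CPM, with replicate 1 far below the others. *MCM7* had a log2 fold change of -0.13 ± 0.20 (SE, adjusted p = 0.626), and its replicate 1 lay above Control. All 6 ring subunits were lower without replicate 1 of CTCFL-KD, where 23.7% of all genes were, with -0.39 for *MCM2* and -0.36 for *MCM7*.

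Because the subunits of a ring are needed in fixed numbers, their transcripts can be compared per length, as CPM divided by exonic length in kilobases (RPKM). In Control, *MCM7* had 53.2 ± 0.771 RPKM (SD, n = 3), *MCM3* 44.7 ± 0.919 RPKM (SD, n = 3), *MCM2* 43.4 ± 1.33 RPKM (SD, n = 3), *MCM6* 36.3 ± 0.970 RPKM (SD, n = 3), *MCM4* 28.5 ± 0.945 RPKM (SD, n = 3) and *MCM5* 11.8 ± 0.705 RPKM (SD, n = 3). The ring subunits thus stood within a factor of 4.51 of each other. In this order only *MCM3* and *MCM2* differed by less than 1 SD, that of *MCM2*. The other CMG subunits stood below all ring subunits but *MCM5*, with *CDC45* at 15.6 ± 0.612 RPKM (SD, n = 3), *GINS2* at 11.2 ± 0.359 RPKM (SD, n = 3), *GINS4* at 6.64 ± 0.281 RPKM (SD, n = 3), *GINS1* at 4.60 ± 0.231 RPKM (SD, n = 3) and *GINS3* at 1.88 ± 0.056 RPKM (SD, n = 3). Of these, *CDC45* was above *MCM5*, and *GINS2* differed from *MCM5* by less than 1 SD, that of *MCM5*. The length used was that of all annotated exons of a gene, so a gene with long rare exons has an RPKM that is too low.

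**Figure D2:**
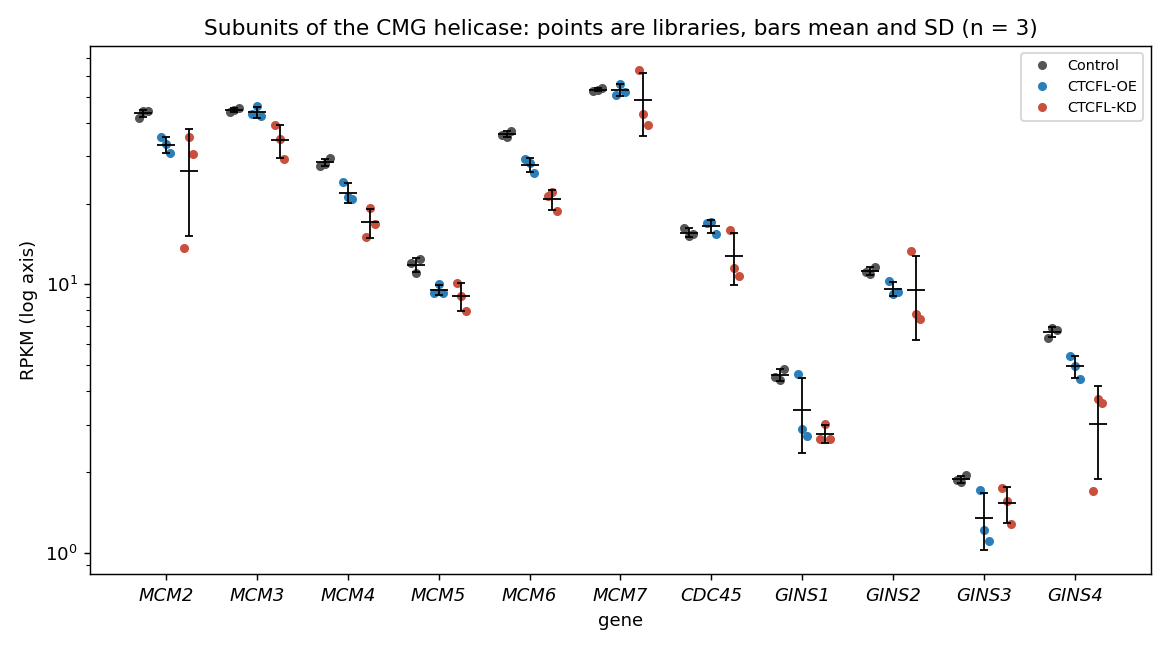
RPKM on a log axis for the 11 subunits of the CMG helicase, with 1 point per library in Control (grey), CTCFL-OE (blue) and CTCFL-KD (red) and black bars for the mean and SD of 3 libraries. The points of *MCM6* and *GINS4* do not overlap between groups, whereas the CTCFL-KD libraries of *MCM2*, *MCM7* and *GINS2* spread widely around their means.

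Of the 6 genes of helicase activation, *MCM10*, *GINS1* and *GINS4* were lower in CTCFL-KD. *GINS4*, a subunit of the 4-part GINS complex, had the most negative log2 fold change of all members. It measured 34.5, 37.4 and 36.7 CPM (Control), 29.4, 27.1 and 24.3 CPM (CTCFL-OE) and 9.29, 20.5 and 19.7 CPM (CTCFL-KD). All CTCFL-KD libraries were below all others, but replicate 1 was at less than 0.5 times the other 2, and the log2 fold change of -1.13 ± 0.26 (SE, adjusted p = 0.00623) became -0.85 without that library (adjusted p = 0.00024 from the same test). *MCM10*, which helps the assembled helicase to start, measured 30.8, 35.2 and 33.9 CPM (Control), 26.1, 28.3 and 25.7 CPM (CTCFL-OE) and 11.8, 20.3 and 19.3 CPM (CTCFL-KD). Its 3 groups did not overlap, and its log2 fold change in CTCFL-KD was -0.95 ± 0.21 (SE, adjusted p = 0.00461). *GINS1* measured 36.4, 35.3 and 38.9 CPM (Control) and 21.3, 24.2 and 21.4 CPM (CTCFL-KD), with a log2 fold change of -0.72 ± 0.21 (SE, adjusted p = 0.0201). The *GINS1* call was lost with offsets for length and GC content and without replicate 1 or 3 of Control or replicate 3 of CTCFL-KD. The other parts of the complex did not pass the test, with log2 fold changes of -0.24 for *GINS2*, -0.31 for *GINS3* and -0.30 for *CDC45*, so the 4 GINS transcripts were not called alike. *GINS2* and *CDC45* were above or within the Control range in replicate 1 of CTCFL-KD and below it in replicates 2 and 3. Without replicate 1, 5 of the 6 genes of helicase activation were lower, again beside 23.7% of all genes, with -0.56 for *GINS2* and -0.48 for *CDC45*.

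Among the polymerases and primase, *PRIM2* was lower in CTCFL-KD and the other 5 did not pass the test. This is 16.7% of the 6, beside 16.8% lower over all genes tested. All 6 had CTCFL-KD libraries below every Control library, as did 27.6% of all genes tested. Without replicate 1 of CTCFL-KD the count lower was still 1, beside 23.7% of all genes. *PRIM2*, the large subunit of primase, had the lowest adjusted p of all 38 members. It measured 56.2, 56.9 and 62.4 CPM (Control), 52.1, 41.3 and 42.3 CPM (CTCFL-OE) and 23.4, 29.5 and 31.5 CPM (CTCFL-KD). CTCFL-KD lay at 0.482 times Control, with a log2 fold change of -1.05 ± 0.18 (SE, adjusted p = 0.00107). *PRIM1*, the catalytic subunit of the same enzyme, measured 15.3, 15.0 and 15.6 CPM (Control) and 5.50, 10.4 and 11.1 CPM (CTCFL-KD) and missed the threshold with a log2 fold change of -0.76 ± 0.28 (SE, adjusted p = 0.052). The catalytic subunits of the 3 replicative polymerases had smaller differences, with log2 fold changes of -0.45 for *POLA1* (polymerase alpha, adjusted p = 0.111), -0.27 for *POLE* (polymerase epsilon, adjusted p = 0.26) and -0.16 for *POLD1* (polymerase delta, adjusted p = 0.405). The values of *POLA1* and *POLE* were -0.25 and -0.16 without replicate 1 of CTCFL-KD. For *POLD1* the 95% interval was -0.49 to 0.16, which does not reach a 2-fold decrease. *POLE2*, the second subunit of polymerase epsilon, had -0.34 (adjusted p = 0.159). Reads of *PRIM2* are uncertain, since parts of this gene have close copies in the genome and the treatment of reads with several matches is not given in the sources used here.

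Of the clamp, the clamp loader and the enzymes that finish the lagging strand, *PCNA*, *RFC1*, *RFC3* and *RFC5* were lower in CTCFL-KD. *RFC5*, a small subunit of the loader, measured 46.7, 46.2 and 47.4 CPM (Control), 44.7, 43.5 and 37.7 CPM (CTCFL-OE) and 24.6, 28.6 and 27.4 CPM (CTCFL-KD). The CTCFL-KD libraries lay far below the rest, while those of CTCFL-OE reached near Control, and the log2 fold change in CTCFL-KD was -0.80 ± 0.15 (SE, adjusted p = 0.0024). *PCNA*, the sliding clamp that holds polymerases on DNA, measured 118, 122 and 115 CPM (Control), 116, 90.4 and 84.3 CPM (CTCFL-OE) and 83.1, 64.5 and 55.0 CPM (CTCFL-KD). It had a log2 fold change of -0.81 ± 0.20 (SE, adjusted p = 0.00849) in CTCFL-KD, and its CTCFL-OE libraries 2 and 3 also lay below Control. *RFC1*, the large subunit, and *RFC3* had log2 fold changes of -0.75 ± 0.19 (SE, adjusted p = 0.00904) and -0.79 ± 0.22 (SE, adjusted p = 0.0148). The *RFC3* call was lost without replicate 3 of Control. The loader was not called as a whole, because *RFC2* had -0.24 ± 0.23 (SE, adjusted p = 0.435) and *RFC4* 0.23 ± 0.25 (SE, adjusted p = 0.492). *RFC4* measured 65.1, 34.4 and 33.0 CPM in replicates 1, 2 and 3 of CTCFL-KD, and only replicate 1 was above Control. *FEN1*, the nuclease that trims Okazaki fragments, and *LIG1*, the ligase that joins them, had log2 fold changes of -0.22 and -0.12 with 95% intervals of -0.66 to 0.21 and -0.45 to 0.22. When replicate 1 of CTCFL-KD was left out, 6 of the 8 genes of this role were lower, beside 23.7% of all genes, as *RFC2* had -0.50 and *FEN1* -0.47 and both passed, while *RFC4* turned to -0.15 and did not pass.

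In nucleotide synthesis, *RRM1*, *RRM2* and *TYMS* were lower in CTCFL-KD, and *TK1* did not pass the test. *RRM2*, the subunit of ribonucleotide reductase that limits its activity in S phase, measured 305, 302 and 324 CPM (Control), 280.0, 216 and 223 CPM (CTCFL-OE) and 193, 192 and 164 CPM (CTCFL-KD). All 3 CTCFL-KD libraries were below all 3 CTCFL-OE libraries, which were below Control, and the log2 fold change in CTCFL-KD was -0.76 ± 0.18 (SE, adjusted p = 0.00668). *RRM1*, the large subunit of this enzyme, had 168, 169 and 169.8 CPM (Control) and 127, 128 and 116 CPM (CTCFL-KD), and its log2 fold change of -0.45 ± 0.16 (SE, adjusted p = 0.0478) was the call closest to the threshold. With the replicate number as a block, it was no longer called (adjusted p = 0.0625 from the same test), and it passed in 11 of 20 alternatives. *TYMS*, the thymidylate synthase, measured 57.0, 56.0 and 56.9 CPM (Control), 71.5, 59.1 and 59.5 CPM (CTCFL-OE) and 32.2, 43.6 and 35.7 CPM (CTCFL-KD). CTCFL-KD lay below Control and CTCFL-OE above it, with log2 fold changes of -0.61 ± 0.17 (SE, adjusted p = 0.0168) and 0.16. The *TYMS* call in CTCFL-KD was lost without any one of the Control libraries and without replicate 3 of CTCFL-KD. Its 3′ end overlaps the antisense gene *ENOSF1*, and whether the counting used the strand is not given in the sources used here. *TK1*, the thymidine kinase of the salvage pathway, measured 151, 134 and 147 CPM (Control), 157, 127 and 117 CPM (CTCFL-OE) and 357, 158 and 157 CPM (CTCFL-KD). Every CTCFL-KD library was above Control, but replicate 1 was at more than 2 times the other 2, and the log2 fold change of 0.64 ± 0.30 (SE, adjusted p = 0.113) was 0.14 without it.

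Of the 3 regulators, *CCNE2* was lower in CTCFL-KD and both E2F genes did not pass the test. *CCNE2*, the cyclin that binds CDK2 beside cyclin E1, was the lowest member in CPM after *GINS3* in Control and measured 11.8, 13.4 and 11.4 CPM (Control), 10.3, 9.35 and 7.44 CPM (CTCFL-OE) and 3.61, 7.31 and 5.86 CPM (CTCFL-KD). No group overlapped another, and its log2 fold change in CTCFL-KD was -1.11 ± 0.25 (SE, adjusted p = 0.00525), which was -0.89 without replicate 1. *E2F1*, an activator E2F that is also transcribed in late G1, measured 64.6, 61.4 and 65.7 CPM (Control), 78.7, 70.1 and 76.9 CPM (CTCFL-OE) and 136, 72.1 and 66.1 CPM (CTCFL-KD). Both changed groups lay above Control in every library, but with log2 fold changes of 0.51 ± 0.25 (SE, adjusted p = 0.128) in CTCFL-KD and 0.24 ± 0.25 (SE, adjusted p = 0.65) in CTCFL-OE neither passed the test. Without replicate 1 of CTCFL-KD the value for CTCFL-KD was 0.12. *E2F2* had log2 fold changes of 0.06 in CTCFL-KD and 0.29 in CTCFL-OE, with 95% intervals of -0.35 to 0.47 and -0.11 to 0.70. Its fold change in CTCFL-KD was -0.07 without replicate 1. Transcript levels of E2F factors do not measure their activity, which RB proteins set.

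**Figure D3:**
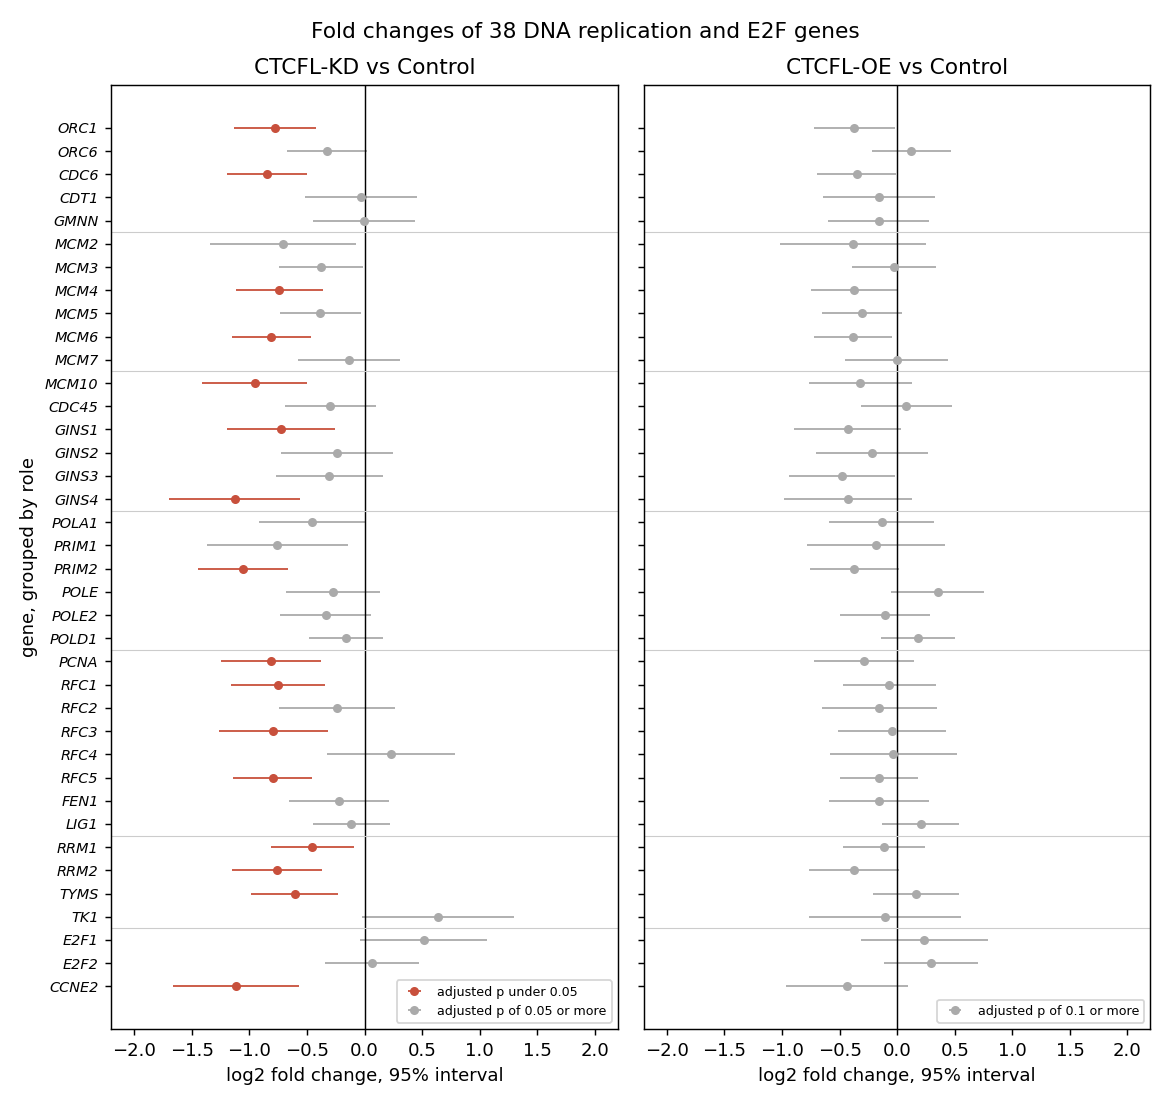
Log2 fold changes against Control with 95% intervals for the 38 members in role order, with CTCFL-KD on the left and CTCFL-OE on the right, coloured where the adjusted p passed its threshold and grey otherwise. On the left 16 intervals are coloured, all left of 0. On the right all 38 are grey and most intervals cross 0.

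In CTCFL-OE no member passed the test against Control at its threshold, an adjusted p under 0.1. Over all genes tested, 1.16% were lower and 1.99% higher at that threshold. The lowest adjusted p of a member was 0.233, for *MCM6*. An unadjusted p under 0.05 was found for 4 of the 38 members, all with fold changes below 0 (*ORC1*, *CDC6*, *MCM6* and *GINS3*). Over all 17794 genes tested, 1195 had such a p with a fold change below 0 and 1962 with one above 0. DESeq2 on the 9 libraries called 1 member lower, *MCM6*, where it called 2.95% of all genes lower. The log2 fold changes ran from -0.48 for *GINS3* to 0.35 for *POLE*, with a median of -0.16 beside -0.01 over all genes tested, and 30 of 38 were below 0. For 37 of the 38 members the 95% interval lay within 1 log2 unit of 0, the exception being *MCM2* with -1.02 to 0.25.

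By position, 15 members had every CTCFL-OE library below every Control library and 4 (*POLD1*, *LIG1*, *TYMS* and *E2F1*) had every one above, beside 20.8% below and 16.3% above over all genes tested. The 15 were *ORC1*, *CDC6*, *MCM2*, *MCM4*, *MCM5*, *MCM6*, *MCM10*, *GINS2*, *GINS3*, *GINS4*, *PRIM2*, *RFC5*, *FEN1*, *RRM2* and *CCNE2*. *POLE*, which copies the leading strand, measured 79.2, 86.0 and 80.8 CPM (Control), 84.3, 115 and 115 CPM (CTCFL-OE) and 57.2, 77.2 and 68.9 CPM (CTCFL-KD), and replicates 2 and 3 of CTCFL-OE were the highest of the 9 libraries. *GINS1* measured 37.1, 23.1 and 21.8 CPM in CTCFL-OE, where replicate 1 was at the Control level and the other 2 were far below it. The CTCFL-OE libraries differed in this way for the members as a whole, with median log2 differences from the Control mean of -0.05 in replicate 1, -0.17 in replicate 2 and -0.29 in replicate 3, and the share of mitochondrial counts stood in the same order, from 7.40% to 14.9%. The part of that difference was not tested.

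The count of calls in CTCFL-OE depended on a CTCFL-KD library. All 9 libraries share the estimate of the spread, the low-count filter and the scaling, and which of these changed the count was not tested. Without replicate 1 of CTCFL-KD, 12 members were lower and 2 (*POLE* and *E2F1*) were higher in CTCFL-OE, but the share of all genes rose as well, to 13.4% lower and 14.0% higher. The fold changes themselves stayed the same to within 0.01 for *MCM6*, at -0.38, where the adjusted p became 0.0355 in the same test. Fitted to the 6 Control and CTCFL-OE libraries alone, edgeR called 5 members lower and *E2F1* higher, where 7.96% of all genes were lower and 12.2% higher, and DESeq2 called 11 lower and *POLE* higher, where 11.2% were lower and 13% higher. All 12 members that were lower in CTCFL-OE without that library had changes of less than 2-fold.

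Since both comparisons used the same Control libraries, their fold changes are not independent, and CTCFL-KD was therefore also set against CTCFL-OE directly. In that comparison 8 members were lower in CTCFL-KD (*CDC6*, *MCM10*, *PRIM2*, *POLE*, *RFC1*, *RFC3*, *RFC5* and *TYMS*) and none was higher, 21.1% of the members beside 11.5% lower and 15.3% higher over all genes tested. The lowest adjusted p was that of *TYMS*, with a log2 fold change of -0.77 ± 0.17 (SE, adjusted p = 0.00748). *RFC5* followed with -0.64 ± 0.15 (SE, adjusted p = 0.011) and *PRIM2* with -0.68 ± 0.18 (SE, adjusted p = 0.016). The median log2 fold change of the members was -0.35, and 1 member with a fold change above 0, *TK1*, had an unadjusted p under 0.05, with an adjusted p of 0.0878. This count also depended on single libraries, with 21 members lower without replicate 1 of CTCFL-KD, where 18.7% of all genes were lower, and 4 members called without replicate 2 or without replicate 3 of CTCFL-OE, where 7.38% and 8.97% were lower. *TYMS* passed in all 20 alternatives, whereas *CDC6*, *MCM10* and *POLE* passed in 8, 11 and 12 of them, and *CDC6* had an adjusted p of 0.0623 in the same test with a replicate block. *TK1* passed as higher in 3 alternatives, which were the fit with no low-count filter and those without replicate 2 or without replicate 3 of CTCFL-KD. Plasmid transfection and siRNA treatment also separate these groups.

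Replicate 1 of CTCFL-KD was the library on which single members depended most. It was the highest of the 3 CTCFL-KD libraries in 17 members, the lowest in 17 and between the others in 4. Its log2 difference from the mean of replicates 2 and 3 was 1.18 for *TK1*, 0.98 for *E2F1* and 0.95 for *RFC4*, and -1.27 for *MCM2*, -1.10 for *GINS4* and -0.95 for *PRIM1*. Across the 38 members this difference had a Spearman correlation of -0.43 with the length of the longest transcript, as a description of genes that share this library. Without it, 24 members were lower in CTCFL-KD and none was higher, beside 23.7% lower and 26.2% higher over all genes tested. These 24 held all 16 members called with it and 8 more, *MCM2*, *MCM3*, *MCM5*, *MCM7*, *CDC45*, *GINS2*, *RFC2* and *FEN1*. None of them was a DEG then, as *GINS4*, *PRIM2* and *CCNE2* had log2 fold changes of -0.85, -0.93 and -0.89. With offsets for transcript length and GC content in place of leaving the library out, 25 members were lower, beside 22.1% lower and 22.3% higher over all genes tested, and *GINS4* was the only DEG.

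**Figure D4:**
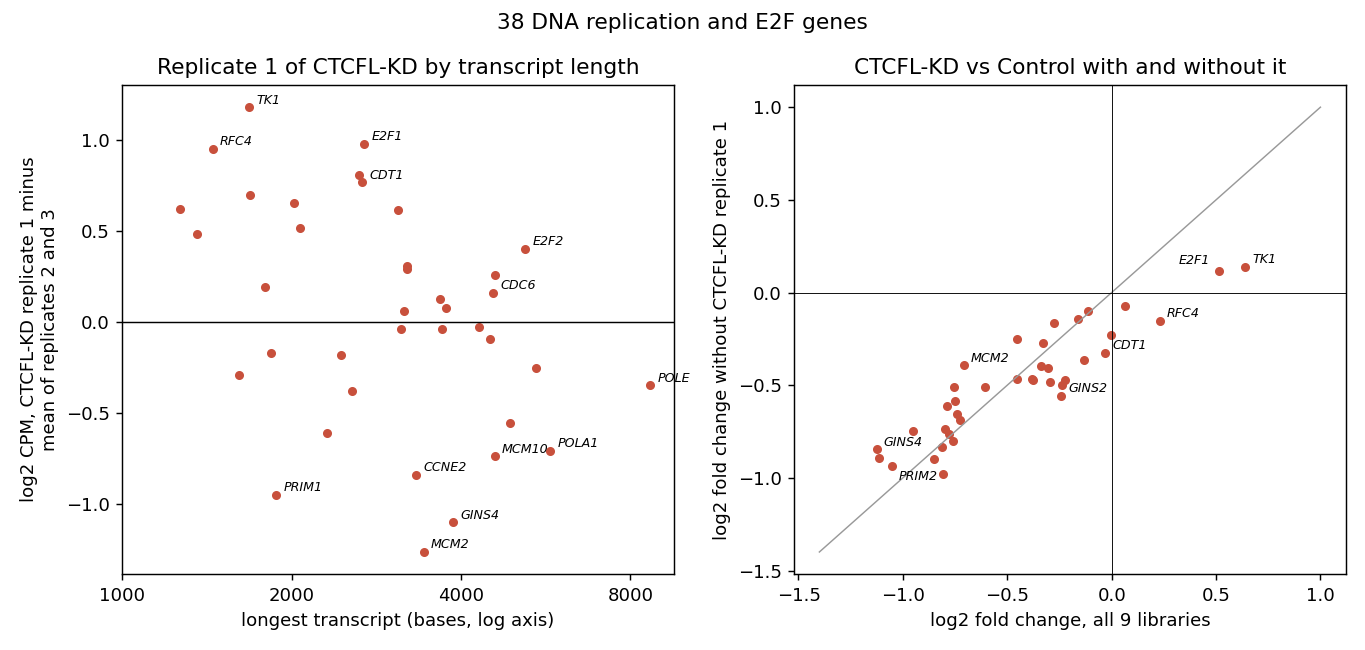
Left, the log2 CPM of replicate 1 of CTCFL-KD minus the mean of replicates 2 and 3, against the length of the longest transcript on a log axis, with 1 point per member. Right, the log2 fold change of CTCFL-KD vs Control without that library against the value with all 9 libraries, with the line of equal values. On the left *TK1* and *RFC4* lie among the highest points and *MCM2* and *GINS4* lie lowest, while *PRIM1*, *TYMS* and *ORC6*, with transcripts about as short as that of *TK1*, lie below 0, and on the right *TK1* and *E2F1* move close to 0 while *GINS4* and *PRIM2* stay below -0.8.

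The spread within groups differed as well. The coefficient of variation of a member had a median of 4.15% (Control), 10.2% (CTCFL-OE) or 20.2% (CTCFL-KD). In CTCFL-KD it ran from 1.58% for *ORC1* to 51.3% for *TK1*. In Control it ran from 0.502% for *RRM1* to 9.04% for *ORC6*, so that the Control libraries were close to each other for every member. The distance from a log2 fold change to either end of its 95% interval had a median of 0.42 in both comparisons with Control, and a member with a difference much smaller than this could not be called.

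Beside the members, 71 further genes of the same pathways were examined, of which 69 were tested. In CTCFL-KD, 24 of them (34.8%) were lower and none was higher, beside the 16.8% lower and 21.4% higher over all genes tested, with a median log2 fold change of -0.37. The other replication factors gave 14 of 33, the E2F, RB and G1/S genes 6 of 23, the remaining nucleotide synthesis genes 2 of 7 and the replication-coupled chromatin genes 2 of 6. Without replicate 1 of CTCFL-KD, 36 were lower and 2 (*MCM9* and *CDKN1B*) were higher, where the shares of all genes were 23.7% and 26.2%, and the same lists gave 19, 9, 3 and 5 lower. *DBF4*, which activates the CDC7 kinase at origins, measured 34.3, 39.8 and 34.6 CPM (Control), 37.4, 28.7 and 23.8 CPM (CTCFL-OE) and 10.3, 16.4 and 16.4 CPM (CTCFL-KD), and *MCMBP*, which binds and protects free MCM subunits, 120.1, 118 and 128 CPM (Control), 111, 102 and 93.0 CPM (CTCFL-OE) and 42.8, 63.3 and 60.6 CPM (CTCFL-KD). For both genes all CTCFL-KD libraries were below all others, with log2 fold changes of -1.33 ± 0.23 (SE, adjusted p = 0.00133) and -1.13 ± 0.19 (SE, adjusted p = 0.000898). *UHRF1* and *ASF1B*, which bring DNA methylation and histones to new DNA, had log2 fold changes of -1.18 ± 0.19 (SE, adjusted p = 0.000779) and -1.02 ± 0.16 (SE, adjusted p = 0.00077). *CTPS1*, an enzyme of CTP synthesis, had -0.73 ± 0.16 (SE, adjusted p = 0.00486).

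Upstream of E2F, *CCND1* (cyclin D1), which starts the release of E2F from RB, had the lowest adjusted p of these genes. It measured 487, 461 and 503 CPM (Control), 305, 276 and 281 CPM (CTCFL-OE) and 91.0, 111 and 96.8 CPM (CTCFL-KD). The groups did not overlap, and the log2 fold changes were -2.28 ± 0.18 (SE, adjusted p = 9.27e-06) in CTCFL-KD and -0.75 ± 0.17 (SE, adjusted p = 0.0633) in CTCFL-OE. In CTCFL-OE it was 1 of 2 pathway genes that passed, both lower. They are 2.9% of the 69 tested, beside 1.16% lower and 1.99% higher over all genes tested. The other was *CDKN1A*, the inhibitor p21, at 4.26, 3.23 and 4.41 CPM (Control), 2.37, 1.62 and 2.34 CPM (CTCFL-OE) and 5.41, 4.46 and 4.93 CPM (CTCFL-KD), with a log2 fold change of -0.90 ± 0.23 (SE, adjusted p = 0.0925) in CTCFL-OE and 0.32 ± 0.23 (SE, adjusted p = 0.29) in CTCFL-KD. Both calls in CTCFL-OE were lost when any one of the Control libraries, or replicate 2 or 3 of CTCFL-OE, was left out, and that of *CDKN1A* also without replicate 2 or 3 of CTCFL-KD. In CTCFL-KD vs CTCFL-OE *CDKN1A* was higher, with 1.22 ± 0.24 (SE, adjusted p = 0.00353), and passed in all 20 alternatives. *CCNA2* (cyclin A2) was lower in CTCFL-KD with -0.99 ± 0.19 (SE, adjusted p = 0.00279). *CCNE1* (cyclin E1), the paralog of *CCNE2*, had a log2 fold change of -0.02 ± 0.19 (SE, adjusted p = 0.953) in CTCFL-KD with a 95% interval of -0.43 to 0.40, and -0.23 without replicate 1, where it did not pass either. *RB1* had 8.03, 34.0 and 35.2 CPM in replicates 1, 2 and 3 of CTCFL-KD, beside 37.5, 35.8 and 41.6 CPM in Control, and did not pass (log2 fold change -0.57 ± 0.41 (SE, adjusted p = 0.298), or -0.14 without replicate 1).

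As a measure of another phase of the cell cycle, 15 G2/M genes were set beside the members. In CTCFL-KD, 9 of them were lower and none was higher, 6 of them as DEGs, beside 16.8% lower and 7.94% lower as DEGs over all genes tested, with a median log2 fold change of -0.92. Without replicate 1 of CTCFL-KD, 11 were lower, 4 of them as DEGs (*CCNB1*, *PLK1*, *AURKA* and *CDC20*), where 23.7% of all genes were lower, and the median was -0.87. In CTCFL-OE none passed, and the median was 0.09. Of the 15, 1 had an unadjusted p under 0.05 with a fold change above 0, as did 1962 of the 17794 genes tested. *MKI67*, the gene of the proliferation antigen Ki-67, measured 306, 403 and 358 CPM (Control), 482, 573 and 563 CPM (CTCFL-OE) and 188, 327 and 259 CPM (CTCFL-KD). CTCFL-OE lay above Control in every library, but neither log2 fold change against Control passed the test, with 0.60 ± 0.23 (SE, adjusted p = 0.208) in CTCFL-OE and -0.46 ± 0.23 (SE, adjusted p = 0.132) in CTCFL-KD (-0.28 without replicate 1). Of the 20 alternatives, *MKI67* passed in 4 in CTCFL-OE and in 2 in CTCFL-KD, with the same signs. The direct comparison of CTCFL-KD with CTCFL-OE gave -1.06 ± 0.23 (SE, adjusted p = 0.00663). The G2/M genes thus had a more negative median than the replication genes in CTCFL-KD. Whether the lists differ was not tested.

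The promoters shown at the start can be set beside these results. RefSeq promoters were found for 34 of the 38 members, all but *MCM4*, *MCM5*, *GINS4* and *CCNE2*. An E2F spelling stood in 19 of the 34 (55.9%), beside 17 of 56 pathway genes (30.4%) and 1090 of 27305 genes in all (3.99%). CCAAT stood in 21 of the 34 members (61.8%, beside 39.7% of all genes) and the GC box GGGCGG in 25 (73.5%, beside 48.3%), each searched on both strands. The share of promoters with these E2F letters was thus higher among the members than among all genes. Among the 19 members with an E2F match, 6 were lower in CTCFL-KD, and their median log2 fold change was -0.34. Among the 15 without a match, 7 were lower, with a median of -0.45, beside 16.8% lower over all genes tested. Without replicate 1 of CTCFL-KD, 10 members of each class were lower, with medians of -0.40 and -0.50, beside 23.7% of all genes. *CDC6* and *MCM6* were lower and held matches, and *PRIM2* and *RFC5* were lower with none of the 4 spellings in the window. *E2F1*, *CDT1* and *MCM7* held matches and did not pass the test, but *MCM7* was lower without replicate 1 of CTCFL-KD and *CDT1* with the length and GC offsets.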

How the data were processed

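RNA of 9 OVCAR3 samples, grouped by their labels, was sequenced by the authors as paired ends. The deposited values are raw counts per gene. The methods name Trimmomatic for trimming, STAR for alignment to GRCh38 and featureCounts for counting, whereas the submitters' processing notes list kallisto in place of STAR. Which gene annotation, strand option and rule for reads with several matches were used is not given in the sources used here. Reads carried no molecular identifiers.

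GENCODE 44 supplied symbols and exonic lengths and matched 60419 of 60660 identifiers. After filterByExpr, 17794 of the 37834 genes with at least 1 count were tested with edgeR 4.0.16 in R 4.3.3, by 1 robust quasi-likelihood model of the 9 libraries (TMM scaling, condition as factor, Benjamini-Hochberg adjustment). Thresholds were an adjusted p under 0.05 (0.1 where CTCFL-OE was set against Control) and a log2 fold change beyond 1 for a DEG. A standard error is the absolute log2 fold change over the root of the F statistic. Alternatives were DESeq2 1.42.0, other scalings and filters, fits to 2 groups, length and GC offsets, a replicate block and each library left out.

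The members and lists were chosen with earlier results of these data known. Values in every library were planned for DEGs, for the member with the lowest p in each role in CTCFL-KD and for that in CTCFL-OE, and the 2 genes with the lowest p in each pathway list were named besides *CCNE1*, *CDKN1A*, *RB1* and *MKI67*, except 1 gene that is not reported here. Promoters were those with an E2F match among the 3 members of lowest p in each direction. Other members with library values and the 24-base sites were chosen after values were seen. Deviations from group means of Control and CTCFL-KD libraries with the same replicate number had correlations of 0.417, 0.220 and 0.310 (10302 genes). Those with different numbers had correlations from -0.418 to 0.194. Deviations cancel within a group, so these values depend on each other and cannot decide whether the libraries were paired. The knockdown is described as a separate experiment. Replicates of a group differed by more than counting noise, and none was a duplicate.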

Additional observations from a re-analysis of the deposited data

How the results depend on the processing

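Of the 16 members lower in CTCFL-KD, 12 passed in each of the 20 alternatives, and *GINS1*, *RFC3*, *RRM1* and *TYMS* passed in 16, 19, 11 and 16 of them. No call of a member changed its direction, and *TK1* was the member called higher in CTCFL-KD vs CTCFL-OE in 3 alternatives. With length and GC offsets 25 members passed in CTCFL-KD (22.1% of all genes lower), with 1 DEG, and with the replicate block added to the offsets 28 passed (22.2% lower), with 1 DEG. With the replicate block alone 15 members passed in CTCFL-KD (all but *RRM1*), 0 in CTCFL-OE and 7 in CTCFL-KD vs CTCFL-OE, where *CDC6* was lost, and it changed no other call of a member. In CTCFL-OE, DESeq2 on all 9 libraries passed 1 member, edgeR on the 2 groups compared 6, DESeq2 on the 2 groups 12 and the offsets 1. *E2F1* of the 6 and *POLE* of the 12 were higher, and the rest were lower. In these fits 2.95%, 7.96%, 11.2% and 3.76% of all genes were lower, and 5.04%, 12.2%, 13% and 6.23% were higher. For the other pathway genes the counts in either direction were 6, 13, 14 and 5, and 4 without the low-count filter. In CTCFL-KD vs CTCFL-OE the members passing were 17 with DESeq2 on all 9 libraries, 1 and 4 with edgeR and DESeq2 on the 2 groups, 16 with the offsets and 17 with the block and the offsets, where 11.2%, 5.87%, 6.60%, 17.8% and 17.7% of all genes were lower. Fits to 2 groups estimate the spread from fewer libraries, and beyond that the cause was not tested. Leaving out 1 library at a time gave 12 to 24 members and 0 to 4 DEGs in CTCFL-KD, 0 to 14 members in CTCFL-OE, 4 to 21 members in CTCFL-KD vs CTCFL-OE, and 15 to 38 and 0 to 21 other pathway genes in CTCFL-KD and CTCFL-OE. The counts of members and pathway genes hold calls in either direction, and 2 of the 14 members in CTCFL-OE were higher. The shares of all genes called lower moved with them, from 10.8% to 23.7% in CTCFL-KD, 0.142% to 13.4% in CTCFL-OE and 7.38% to 18.7% in CTCFL-KD vs CTCFL-OE. The shares called higher ran from 15% to 26.2%, 0.0927% to 14% and 9.96% to 21% in the same order. The highest of these counts, other than that of DEGs, came without replicate 1 of CTCFL-KD, and the lowest pathway count in CTCFL-KD without replicate 1 of Control. For Control and CTCFL-OE, libraries with the same replicate number had correlations of -0.05, 0.25 and -0.04. Those with different numbers had correlations from -0.24 to 0.16, and these values cannot decide on a pairing either. The p values of the main model rest on the spread between libraries of the same group, estimated over all 9 libraries and moderated across genes. Depth enters that model as scaling, and counting error as part of its variance.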
